A study of Mus musculus with 4 samples.

Results

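The transcripts of 10 genes of epithelial junctions and the epithelial cytoskeleton were followed in sorted intestinal stem cells with and without induced deletion of CREPT. They were taken by symbol, and all 10 were among the 18436 genes listed. They comprise the adhesion genes Cdh1 and Epcam, the claudins Cldn3, Cldn7 and Cldn15, the tight junction genes Tjp1 and Ocln, the simple keratins Krt8 and Krt18, and the mesenchymal filament gene Vim as a contrast. RNA was sequenced from Lgr5-GFPhigh cells of 4 C57BL/6 mice, 2 Lgr5-WT and 2 Lgr5-CREPTKO. The Lgr5-WT mice carried Lgr5-EGFP-IRES-creERT2 alone, and the Lgr5-CREPTKO mice carried it with CREPT fl/fl alleles, so both genotypes expressed GFP and a tamoxifen-inducible Cre from the Lgr5 gene. Mice of both genotypes received 1 mg tamoxifen a day by intraperitoneal injection for 5 days, and cells were sorted from crypts on day 7. The study used male and female mice of 6 to 8 weeks. Cre from this allele acts only in cells that express Lgr5. The study describes these mice as mosaic, a small part of the crypts lacking GFP, and the cells sorted here were GFPhigh. The comparison addressed what induced deletion of CREPT, a regulator of transcription encoded by Rprd1b, changes in these cells.

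Epithelial cells are held together by adherens junctions, in which E-cadherin binds its partner on the next cell and is tied to actin through catenins, and by tight junctions, in which claudins and occludin seal the space between cells and are anchored by scaffold proteins such as ZO-1. Desmosomes join the keratin filaments of neighbouring cells. Keratins form filaments only as pairs of a type II and a type I protein, and keratin 8 with keratin 18 is the pair typical of simple epithelia such as the intestine. Vimentin forms the filaments of fibroblasts, endothelial cells and leukocytes, and a gain of vimentin with a loss of E-cadherin is the classical sign of an epithelial-mesenchymal transition.

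Of the 10 genes, 9 were at 10 FPKM or more in every mouse and none passed the test between genotypes. Values are FPKM, fragments per kilobase of transcript scaled to each library, so levels of different genes are compared per length. Log2 fold changes are Lgr5-CREPTKO against Lgr5-WT on the log2(FPKM + 0.5) scale, which understates changes of low genes, and adjusted p-values are from limma's moderated test with Benjamini-Hochberg adjustment over 12621 genes. At an adjusted p below 0.05, 0 of the 10 were called higher and 0 lower, where 0.412% of all genes tested were called higher and 2.67% lower. With an absolute log2 fold change above 1 as well, the study's threshold, 1.14% of all genes were called in either direction. At an unadjusted p below 0.05 from the same fit, 1 of the 10, Tjp1, was higher and 3, Cldn7, Cldn15 and Vim, were lower, beside 9.27% of all genes higher and 15.2% lower. Both Lgr5-CREPTKO mice were above both Lgr5-WT mice for 2 genes and below them for 3, against 25.6% and 31.0% of all genes. The median log2 fold change of the 10 was -0.07, beside -0.01 over all genes tested. The 95% interval lay within 1 on the log2 scale in either direction for 9 of the 10 and within 0.5 for 6. Leaving out any 1 of the 4 mice brought the calls over all genes to 0 in both directions, with 633 to 954 genes higher and 1170 to 1615 lower at an unadjusted p below 0.05.

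The cells and labels were checked first. Rprd1b was 17.69 and 18.09 FPKM in the Lgr5-WT mice and 6.65 and 7.36 in the Lgr5-CREPTKO mice, a difference of -1.29 on the log2 scale (standard error 0.0946, adjusted p = 0.0280). The call was lost when any 1 mouse was left out, as were the calls over all genes (log2 fold change from -1.36 to -1.23). Rprd1b message thus remained in the Lgr5-CREPTKO cells. The CREPT fl/fl alleles lose only part of the gene. Values per gene cannot tell message of deleted alleles from that of undeleted cells, so the extent of deletion was not measured. Lgr5 was 47.67 and 37.70 FPKM in the Lgr5-WT mice and 52.04 and 60.10 in the Lgr5-CREPTKO mice (adjusted p = 0.176). Of 10 stem cell markers, led by Olfm4, Slc12a2 and Cdca7, 0 were called, beside 0.412% of all genes higher and 2.67% lower. By direction, 9 of the 10 had a fold change above 0, and the median was 0.23. Both Lgr5-CREPTKO mice were above both Lgr5-WT mice for 8 and below them for 1, beside 25.6% and 31.0% of all genes. The summed FPKM of these markers was 6232 and 6036 in the Lgr5-WT mice and 6765 and 6549 in the Lgr5-CREPTKO mice. Most of it was Olfm4, at 5077 and 4932 FPKM in Lgr5-WT and 5351 and 5181 FPKM in Lgr5-CREPTKO. From the steps in which low values rise, the libraries were estimated to hold between 17200000 and 18600000 reads.

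By mean level over the 4 mice, the order of the genes was Krt8, Epcam, Krt18, Cldn7, Cldn3, Cdh1, Cldn15, Ocln, Tjp1 and Vim. Neighbours in this order whose values overlapped between mice were Krt18 with Cldn7, Cldn7 with Cldn3, and Cldn3 with Cdh1. The lowest Krt8 value was above the highest Epcam value in all mice, and Vim was below Tjp1 in every mouse. Krt8 was 267 and 189 times Vim in the Lgr5-WT mice and 847 and 495 times Vim in the Lgr5-CREPTKO mice.

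**Figure D1:**
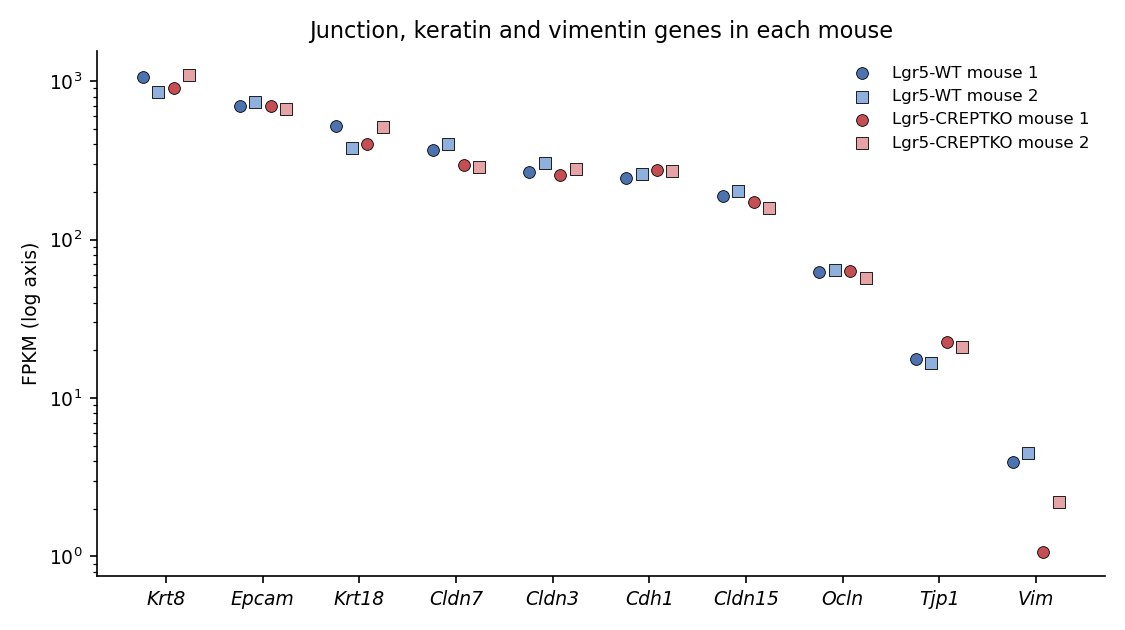
FPKM on a log axis of the 10 genes in each mouse, ordered by mean level, with blue points for the 2 Lgr5-WT mice and red points for the 2 Lgr5-CREPTKO mice. Values run from 1.07 FPKM for Vim to 1099.8 FPKM for Krt8, and the red points lie below both blue points for Cldn7, Cldn15 and Vim and above them for Cdh1 and Tjp1.

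Cdh1 encodes E-cadherin and spans bases 106603350 to 106670247 of chromosome 8, plus strand (GRCm38.p6, as for all positions here). It was 243.87 and 259.63 FPKM in the Lgr5-WT mice and 274.41 and 272.01 in the Lgr5-CREPTKO mice. Both Lgr5-CREPTKO mice were above both Lgr5-WT mice, by a log2 fold change of 0.12 (95% interval -0.06 to 0.30, adjusted p = 0.367). Epcam encodes the cell surface adhesion molecule used to sort epithelial cells, which binds claudin-7, and lies on chromosome 17 from 87635979 to 87651127 on the plus strand. Its values of 697.15 and 739.75 FPKM in Lgr5-WT and 697.46 and 665.45 FPKM in Lgr5-CREPTKO overlapped at a fitted log2 difference of -0.08 (interval -0.28 to 0.12, adjusted p = 0.597). The ratio of Epcam to Cdh1 was 2.86 and 2.85 in the Lgr5-WT mice and 2.54 and 2.45 in the Lgr5-CREPTKO mice, without overlap. It was not tested and not corrected for transcript length.

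Among these 3 claudins, Cldn7 and Cldn15 were lower in both Lgr5-CREPTKO mice, and Cldn3 overlapped. Cldn7, the partner of Epcam along the lateral membrane, lies on chromosome 11 from 69964779 to 69967886 on the plus strand. Its level was 369.89 and 403.53 FPKM in the Lgr5-WT mice and 294.93 and 285.62 in the Lgr5-CREPTKO mice, so that the mean in Lgr5-CREPTKO cells was 75.1% of that in Lgr5-WT cells. Both Lgr5-CREPTKO mice were below both Lgr5-WT mice, the log2 fold change being -0.41 (standard error 0.0776, interval -0.61 to -0.21), and the adjusted p of 0.0638 missed the threshold. Cldn15, which forms a channel for sodium ions in the intestine, lies on chromosome 5 from 136967869 to 136975845 on the plus strand. With 187.35 and 202.71 FPKM in Lgr5-WT and 173.45 and 158.17 FPKM in Lgr5-CREPTKO, its genotypes did not overlap either (log2 fold change -0.23, interval -0.45 to -0.02, adjusted p = 0.179). Cldn3, a sealing claudin, lies on chromosome 5 from 134986214 to 134987476 on the plus strand. Here the values, 265.90 and 305.95 FPKM in Lgr5-WT and 255.91 and 279.41 FPKM in Lgr5-CREPTKO, overlapped (log2 fold change -0.09, interval -0.35 to 0.16, adjusted p = 0.613). The listed gene Wbscr25 overlaps Cldn3 on the other strand and was at 0.42 to 0.73 FPKM.

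The make-up of the claudin family was read from 17 listed claudins, whose summed FPKM was 1012 and 1103 in the Lgr5-WT mice and 902 and 935 in the Lgr5-CREPTKO mice. Cldn7 held 36.5% and 36.6% of that sum in the Lgr5-WT mice and 32.7% and 30.5% in the Lgr5-CREPTKO mice. The share of Cldn3 was 26.3% and 27.7% in Lgr5-WT and 28.4% and 29.9% in Lgr5-CREPTKO. Cldn2, a pore-forming claudin of crypts, held 12.7% and 12.6% in Lgr5-WT and 15.3% and 17.0% in Lgr5-CREPTKO, while the Cldn15 share overlapped between genotypes at 16.9% to 19.2%. So the share of Cldn7 was lower, and those of Cldn3 and Cldn2 higher, in both Lgr5-CREPTKO mice. Shares are relative to the sum, so a lower share of Cldn7 raises those of the others. The levels of Cldn3 and Cldn2 themselves overlapped between genotypes. The ratio of Cldn7 to Epcam was 0.531 and 0.545 in the Lgr5-WT mice and 0.423 and 0.429 in the Lgr5-CREPTKO mice, and that of Cldn7 to Cldn3 was 1.39 and 1.32 against 1.15 and 1.02. These shares and ratios are given as descriptions, with no test and no correction for transcript length.

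**Figure D2:**
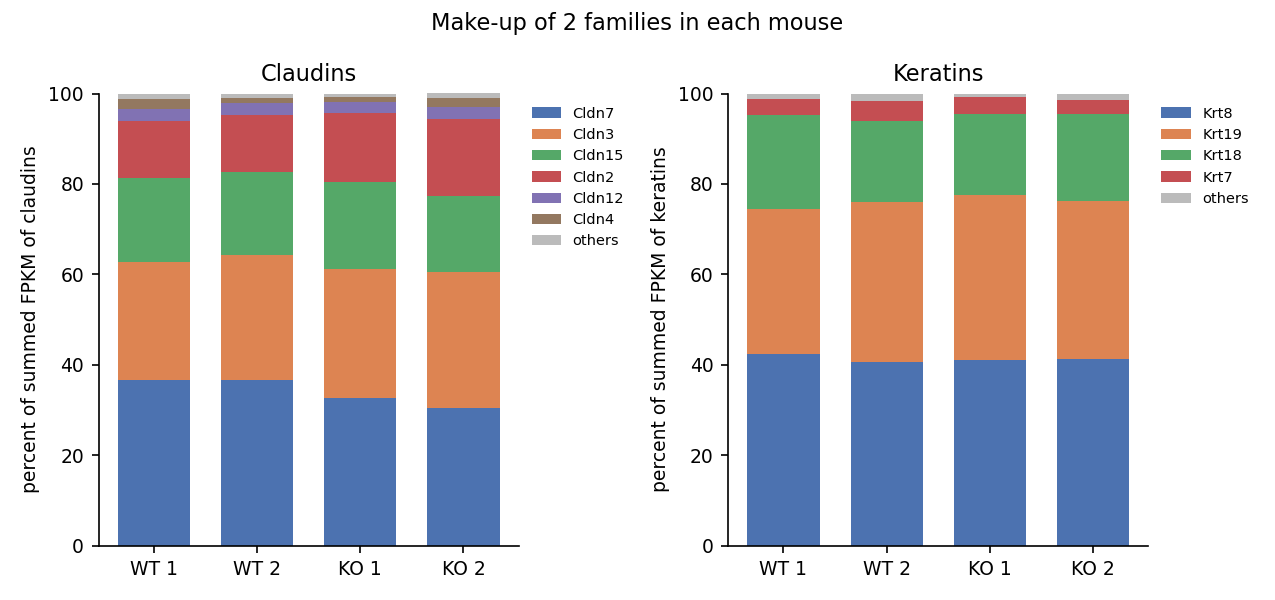
Share, in percent, of each gene in the summed FPKM of 17 listed claudins (left) and 12 listed keratins (right), with 1 stacked bar per mouse and the less abundant genes joined as others. The lowest segment of the left panel, Cldn7, is shorter in both Lgr5-CREPTKO bars (KO), at 32.7% and 30.5%, than in the Lgr5-WT bars (WT), while Krt8 stays between 40.7% and 42.4% on the right.

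Tjp1 and Ocln, a scaffold and a membrane protein of tight junctions, differed in how they stood between genotypes. Tjp1 encodes ZO-1, which links claudins and occludin to actin, and lies on chromosome 7 from 65296165 to 65527850 on the minus strand. Gm44794 and Gm44792 overlap Tjp1 on the same strand and Gm44795 on the other, and their part in its values was not tested. Tjp1 was 17.60 and 16.61 FPKM in the Lgr5-WT mice and 22.62 and 21.06 in the Lgr5-CREPTKO mice. Both Lgr5-CREPTKO values were the higher ones, with a mean 128% of that in Lgr5-WT (log2 fold change 0.34, interval 0.13 to 0.56, adjusted p = 0.0967). Ocln encodes occludin and lies on chromosome 13 from 100496504 to 100552718 on the minus strand. At 62.32 and 64.03 FPKM in Lgr5-WT and 63.45 and 57.04 FPKM in Lgr5-CREPTKO, it overlapped (log2 fold change -0.07, interval -0.28 to 0.14, adjusted p = 0.647). The ratio of Tjp1 to Ocln was 0.282 and 0.259 in the Lgr5-WT mice and 0.357 and 0.369 in the Lgr5-CREPTKO mice. It was not tested and not corrected for transcript length.

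Krt8 and Krt18, which encode keratin 8 and keratin 18, varied together from mouse to mouse, and their values overlapped between genotypes. They lie beside each other on chromosome 15, Krt8 from 101996711 to 102004342 on the minus strand and Krt18 from 102028216 to 102032026 on the plus strand, with starts 23.9 kb apart. Krt8 was 1061.87 and 855.92 FPKM in the Lgr5-WT mice and 905.93 and 1099.8 in the Lgr5-CREPTKO mice (log2 fold change 0.07, interval -0.32 to 0.45, adjusted p = 0.831). Krt18 was 520.31 and 376.27 FPKM in the Lgr5-WT mice and 399.70 and 513.70 in the Lgr5-CREPTKO mice (log2 fold change 0.03, interval -0.48 to 0.54, adjusted p = 0.937). For both genes, Lgr5-WT mouse 1 and Lgr5-CREPTKO mouse 2 held the higher values and the other two mice the lower ones. The ratio of Krt8 to Krt18 moved little, at 2.04 and 2.27 in the Lgr5-WT mice and 2.27 and 2.14 in the Lgr5-CREPTKO mice. The summed FPKM of 8 Paneth cell markers, led by Defa24, Defa17 and Lyz1, was also highest in these mice, at 1452 and 2662 against 1063 in Lgr5-WT mouse 2 and 860 in Lgr5-CREPTKO mouse 1, and its part in the keratin values was not tested. Of the 50-base words of Krt8 transcripts, 26.9% also occur in the pseudogene Krt8-ps, which was not analysed here, so some Krt8 reads could have been shared with it. For Krt18 the share was 0.720%, and for the other 8 genes 0%. Gm36026 overlaps Krt8 on the other strand, and its part in the Krt8 values was not tested.

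Krt19, the other abundant type I keratin of the intestine, was 799.23 and 743.57 FPKM in the Lgr5-WT mice and 806.88 and 927.66 in the Lgr5-CREPTKO mice (log2 fold change 0.17, adjusted p = 0.376). Together with it, Krt8 and Krt18 made up most of the keratin message in each mouse. Krt8 held 40.7% to 42.4% of the summed FPKM of 12 listed keratins, Krt19 31.9% to 36.5%, and Krt18 17.9% to 20.8%. Of the keratins of stratified epithelium, Krt5 and Krt14 were at most at 0.02 and 0.10 FPKM, while Krt10 was at 1.67 to 2.42 and Krt15 at 1.41 to 3.92 FPKM.

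The 250 bases before the starts of Krt8 and Krt18 are shown because these neighbouring genes moved together from mouse to mouse, and those of Vim for contrast. Other genes, Cldn4 and Actg1 among them, also held their higher values in Lgr5-WT mouse 1 and Lgr5-CREPTKO mouse 2. Shared regulation of the neighbouring keratin genes was not tested. The sequences are RefSeq promoters of GRCm38.p6, written 5′ to 3′ on the strand of the gene, at chr15:102004343-102004592 (minus), chr15:102027966-102028215 (plus) and chr2:13574061-13574310 (plus). Capitals mark matches, on either strand, to 4 motifs. The TATA box was searched as TATAAA. For the GC box the letters GGGCGG were used. The AP-1 site was spelled TGANTCA. The E-box was spelled CANNTG. No matches overlapped.
Krt8: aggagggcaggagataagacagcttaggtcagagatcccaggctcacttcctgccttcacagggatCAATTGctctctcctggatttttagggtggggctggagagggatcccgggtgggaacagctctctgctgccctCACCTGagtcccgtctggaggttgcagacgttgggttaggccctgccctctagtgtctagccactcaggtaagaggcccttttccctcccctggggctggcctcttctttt
Krt18: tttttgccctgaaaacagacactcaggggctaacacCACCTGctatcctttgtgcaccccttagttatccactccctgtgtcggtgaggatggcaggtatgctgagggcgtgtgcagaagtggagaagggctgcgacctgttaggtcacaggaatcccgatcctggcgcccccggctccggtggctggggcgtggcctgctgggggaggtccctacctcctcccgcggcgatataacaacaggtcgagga
Vim: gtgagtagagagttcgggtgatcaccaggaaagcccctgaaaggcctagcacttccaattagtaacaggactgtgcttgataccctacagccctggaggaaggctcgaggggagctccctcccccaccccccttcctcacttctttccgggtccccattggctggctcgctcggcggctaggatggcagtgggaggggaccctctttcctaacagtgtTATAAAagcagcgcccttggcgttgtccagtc
Krt8 held 2 E-boxes, 184 and 111 bases before its start, and Krt18 held 1, 214 bases before its start. Vim held a TATA box 32 bases before its start and no E-box. None of the 3 stretches held the GC box or AP-1 letters. Over the upstream stretches of the same length of 27025 genes, 66.0% held an E-box, 13.0% a TATA box, 32.9% a GC box and 6.87% an AP-1 site. A match is a stretch of letters and not evidence of a bound factor.

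Vim had the lowest level and the widest interval of the 10 genes. It lies on chromosome 2 from 13574311 to 13582826 on the plus strand. With 3.97 and 4.53 FPKM in the Lgr5-WT mice and 1.07 and 2.22 in the Lgr5-CREPTKO mice, it was lower in both Lgr5-CREPTKO mice, at 38.7% of the Lgr5-WT mean. These values correspond to an estimated 157 and 185 reads in Lgr5-WT and 43 and 84 reads in Lgr5-CREPTKO. The log2 fold change was -1.20 (standard error 0.291, interval -1.95 to -0.45), and the adjusted p of 0.0943 missed the threshold. Without Lgr5-CREPTKO mouse 1 it was -0.80, and without Lgr5-CREPTKO mouse 2 it was -1.59 (adjusted p = 0.235 and 0.125). The study named Vim from these same samples, so its direction is not independent evidence.

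**Figure D3:**
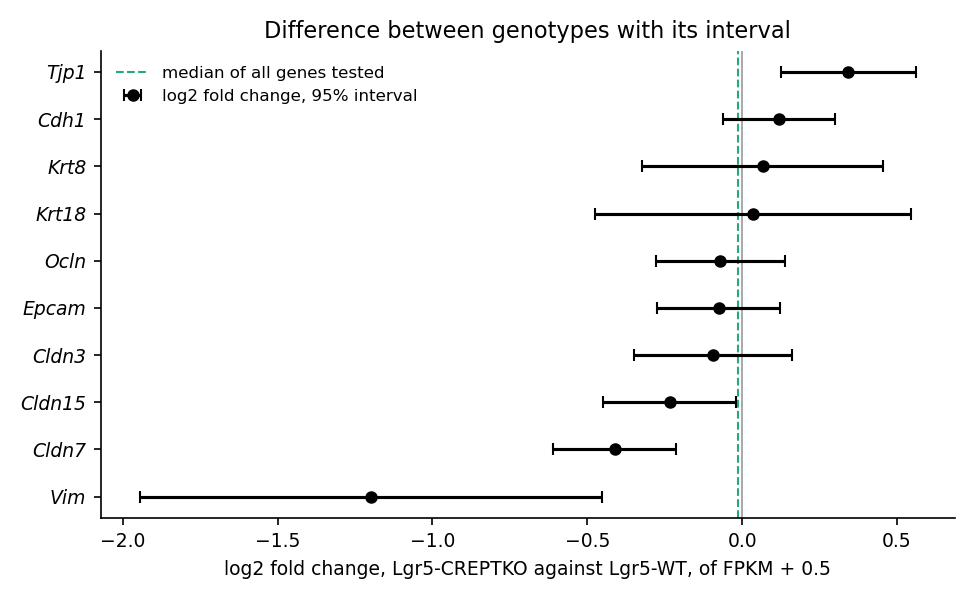
Log2 fold change of each gene, Lgr5-CREPTKO against Lgr5-WT, on the log2(FPKM + 0.5) scale, with its 95% interval from limma. The dashed line marks the median of all genes tested, -0.01. Intervals of Tjp1, Cldn15, Cldn7 and Vim leave out 0 before adjustment, that of Vim being the widest, from -1.95 to -0.45.

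Vim is expressed by cells other than epithelium, so marker lists of those cells were read in the same mice. The summed FPKM of 15 stromal and muscle markers, led by Tagln, Pdgfrb and Thy1, was 1.71 and 2.11 in Lgr5-WT and 1.89 and 2.89 in Lgr5-CREPTKO, with 13 of 15 under 1 FPKM in every mouse and 1 to 6 at 0 in a mouse. For 10 endothelial markers the sum was 10.7 and 9.72 in Lgr5-WT and 8.90 and 8.86 in Lgr5-CREPTKO, nearly all of it Esam, while 9 of 10, Vwf and Plvap among them, were under 1 FPKM throughout. The 19 immune markers summed to 553 and 1226 in the Lgr5-WT mice and 307 and 978 in the Lgr5-CREPTKO mice, most of it Cd74, a gene of antigen presentation that epithelium also expresses. Without Cd74 the sum was 44.5 and 61.4 in Lgr5-WT and 25.8 and 101 in Lgr5-CREPTKO, led by Lcp1 and Gzma. Gzma, a protease of cytotoxic lymphocytes, was 10.33 and 20.98 FPKM in Lgr5-WT and 2.09 and 35.14 FPKM in Lgr5-CREPTKO, and Ptprc, the pan-leukocyte marker, was 0.40, 0.77, 0.14 and 1.35 FPKM in the same order. Lcp1 was 19.76 and 17.89 FPKM in Lgr5-WT and 17.62 and 23.29 FPKM in Lgr5-CREPTKO. The immune sum without Cd74 was lowest in Lgr5-CREPTKO mouse 1 and highest in Lgr5-CREPTKO mouse 2. Vim was lowest in Lgr5-CREPTKO mouse 1 and below both Lgr5-WT mice in Lgr5-CREPTKO mouse 2. The part of immune and other non-epithelial cells in the Vim values was not tested.

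Marker lists of differentiated epithelial cells were read in the same way. The 10 enteroendocrine markers, led by Chgb, Ghrl and Cck, summed to 182 and 207 FPKM in Lgr5-WT and 53.9 and 75.7 in Lgr5-CREPTKO, with 5 called lower. Sums were 31.9 and 67.9 against 27.5 and 9.73 for 10 listed tuft cell markers, led by Avil, Trpm5 and Alox5ap, with 0 called. Goblet cell markers, 8 genes led by Tff3, Fcgbp and Spink4, summed to 1473 and 2457 against 809 and 941, with 1 called lower. Beside these counts, 0.412% of all genes tested were called higher and 2.67% lower. In such pooled cells, fewer cells of a type cannot be told apart from less RNA per cell, and the part of these cells in the values of Vim and the claudins was not tested.

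The wider set of junction, keratin and regulator genes held 105 genes, of which 97 were listed and 70 tested, and 1 was called. At an adjusted p below 0.05, 0 were higher and 1, Esrp2, was lower, beside 0.412% and 2.67% of all genes. At an unadjusted p below 0.05, 16 of the 70 were higher and 5 lower, beside 9.27% and 15.2% of all genes. These were split by transcript length. Of 29 genes with transcripts above 4000 bases, 13 were higher and 0 lower, and of 41 shorter genes 3 were higher and 5 lower. The median log2 fold change of the 70 was 0.07.

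Esrp2, an RNA-binding protein that directs epithelial splicing, fell in Lgr5-CREPTKO cells. It lies on chromosome 8 from 106130319 to 106137193 on the minus strand. The gene was at 29.94 and 28.67 FPKM in the Lgr5-WT mice and at 12.42 and 13.09 FPKM in the Lgr5-CREPTKO mice, both of them below both Lgr5-WT mice. The log2 fold change was -1.17 (standard error 0.0801, interval -1.38 to -0.96, adjusted p = 0.0280), the only one of these lists past the study's threshold as well. The call was lost without the filter on low values (adjusted p = 0.105) and without the intensity trend (0.0623). It was also lost when any 1 mouse was left out (log2 fold change from -1.21 to -1.13). In all these settings the calls over all genes were lost or nearly so. Esrp1, its paralog, was 61.89 and 65.65 FPKM in Lgr5-WT and 61.73 and 59.82 FPKM in Lgr5-CREPTKO, a log2 fold change of -0.07 (adjusted p = 0.603). Nfatc3 and 1810019D21Rik overlap Esrp2 on the other strand. Nfatc3 was 28.27 and 29.21 FPKM in Lgr5-WT and 31.71 and 31.66 FPKM in Lgr5-CREPTKO. Values of 1810019D21Rik were 8.85 and 9.98 FPKM in Lgr5-WT and 6.73 and 6.54 FPKM in Lgr5-CREPTKO (adjusted p = 0.0834). Whether reads were counted by strand is not given in the sources used here, so reads of overlapping genes cannot be told apart. These 3 genes beside Esrp2 were named after their values were seen.

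The other epithelial regulators did not pass the test. Of 8 tested epithelial transcription and splicing factors, 5 had a fold change above 0 and 3 below, and the median was 0.03. Elf3, an epithelial Ets factor, was 368.37 and 399.98 FPKM in Lgr5-WT and 411.52 and 360.10 FPKM in Lgr5-CREPTKO. Klf5, a factor of crypt cells, was 128.38 and 165.92 against 177.73 and 143.17 FPKM. Ehf was 86.91 and 76.21 against 95.13 and 93.08 FPKM, at a fitted log2 difference of 0.21 (adjusted p = 0.228). Genes of the epithelial-mesenchymal transition were low. Of 10 listed, 9 stayed under 1 FPKM in every mouse and 3 were tested, none of them called. Snai3 was 1.49 and 0.85 FPKM in Lgr5-WT and 0.65 and 0.75 FPKM in Lgr5-CREPTKO (adjusted p = 0.376). The study named Snai3 with Vim as lower from these same samples, so its direction is not independent evidence. Snai2 and Cdh11 were between 0.44 and 0.60 FPKM. Cdh2, which encodes N-cadherin, was listed at 0.01 FPKM in 1 mouse and at 0 in the others.

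Of 11 adherens junction genes tested, 9 had a fold change above 0, with a median of 0.21 and 0 called. Ctnnb1, which encodes beta-catenin, was 272.69 and 279.10 FPKM in Lgr5-WT and 280.27 and 295.10 FPKM in Lgr5-CREPTKO (log2 fold change 0.06, adjusted p = 0.645). Cdh17, the liver-intestine cadherin, was 196.70 and 194.93 against 219.58 and 218.75 FPKM (0.16, adjusted p = 0.208). Ctnna1, the alpha-catenin that joins the complex to actin, was 115.31 and 112.59 against 120.78 and 125.29 FPKM (0.11, adjusted p = 0.371). These genes, like Cdh1, stood higher in both Lgr5-CREPTKO mice by small amounts.

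Of 11 desmosome genes tested, 9 also had a fold change above 0, with a median of 0.14 and 0 called. Dsp, the desmoplakin that ties keratin filaments to the desmosome, was 81.72 and 73.64 FPKM in Lgr5-WT and 105.71 and 111.42 FPKM in Lgr5-CREPTKO (log2 fold change 0.48, adjusted p = 0.0570). Jup, plakoglobin, was 56.12 and 57.47 against 66.89 and 65.63 FPKM (0.22, adjusted p = 0.133). Perp, a membrane protein of desmosomes, was 57.93 and 58.08 against 53.77 and 52.10 FPKM (-0.13, adjusted p = 0.298). Their genotypes did not overlap, the first 2 being higher in Lgr5-CREPTKO cells and Perp lower.

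Of 20 tested tight junction scaffolds, MARVEL and JAM proteins, 12 had a fold change above 0 and 8 below, with a median of 0.11 and 0 called. Lsr, which encodes the tricellular junction protein angulin-1, was 143.23 and 162.19 FPKM in Lgr5-WT and 145.36 and 151.96 FPKM in Lgr5-CREPTKO. Tjp3, a relative of Tjp1 that encodes ZO-3, was 104.43 and 115.37 against 114.18 and 127.10 FPKM (adjusted p = 0.426), and F11r, which encodes JAM-A, was 48.97 and 53.07 against 49.07 and 52.27 FPKM. Each of these overlapped. Named after their values were seen, the polarity genes Patj and Crb3 stood in opposite directions. Patj, listed under its older symbol Inadl, was 16.88 and 17.52 against 23.17 and 25.16 FPKM (log2 fold change 0.48, adjusted p = 0.0588). Crb3 was 33.62 and 32.41 against 24.35 and 24.49 FPKM (-0.43, adjusted p = 0.0554).

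Of 5 tested claudins outside the 10 genes, 4 had a fold change below 0, with a median of -0.38 and 0 called. Cldn2 was 128.03 and 139.47 FPKM in Lgr5-WT and 138.13 and 159.21 FPKM in Lgr5-CREPTKO (log2 fold change 0.15, adjusted p = 0.408). Cldn12 was 25.11 and 27.54 against 22.93 and 25.21 FPKM, and Cldn4 was 24.15 and 13.34 against 9.04 and 18.59 FPKM. Each of them overlapped between genotypes. Of 6 tested keratins outside the 10 genes, 4 had a fold change below 0, with a median of -0.24 and 0 called. Krt7 was 91.51 and 94.88 against 81.18 and 84.59 FPKM (-0.17, adjusted p = 0.217), and Krt20, a keratin of differentiated cells, was 12.21 and 21.54 against 7.10 and 23.19 FPKM.

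Partners and regulators of Epcam were at a median of -0.03 over 6 genes tested, with 0 called. Spint2, the inhibitor of the matriptase encoded by St14, was 575.32 and 683.64 FPKM in Lgr5-WT and 619.17 and 601.06 FPKM in Lgr5-CREPTKO, and Tspan8, a tetraspanin, was 381.01 and 416.65 against 421.54 and 344.69 FPKM. St14 itself was 80.31 and 88.92 against 100.85 and 101.30 FPKM (log2 fold change 0.26, adjusted p = 0.137).

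**Figure D4:**
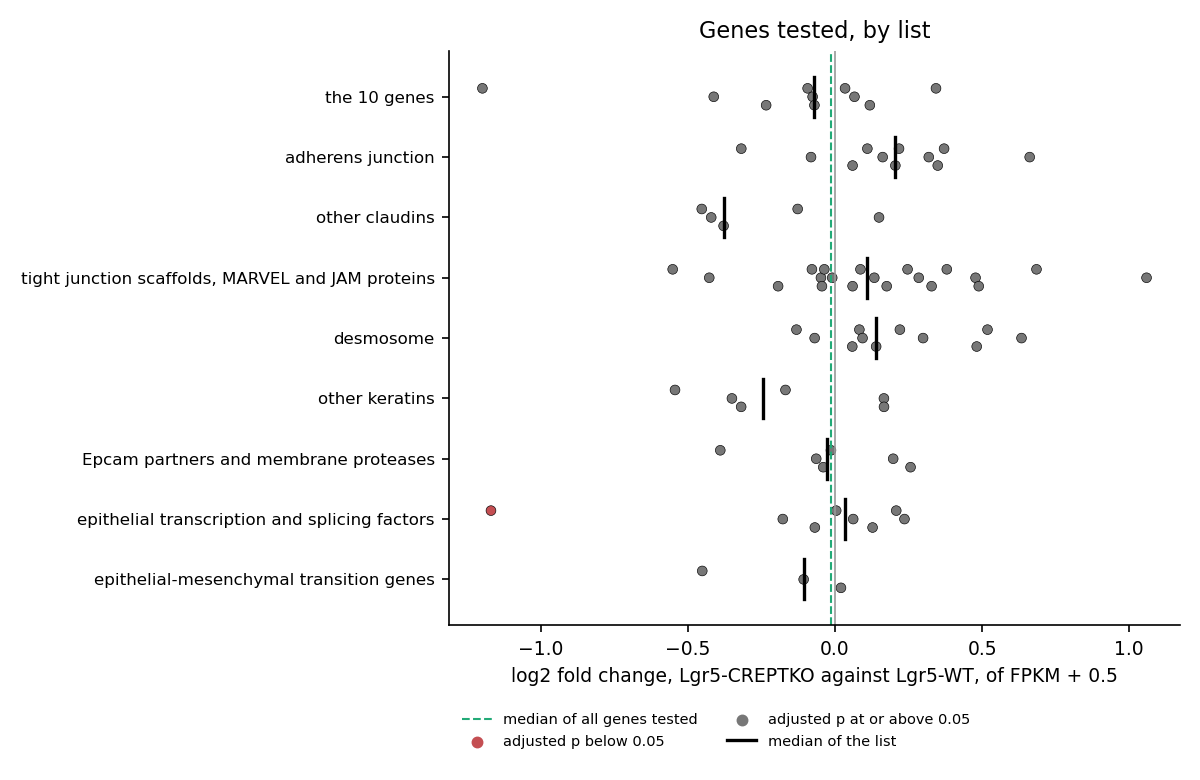
Log2 fold change of the genes tested in each list, 1 point per gene, with the median of the list as a bar and the median of all genes tested, -0.01, as a dashed line. Esrp2, at -1.17, is the only red point (adjusted p below 0.05), and the list medians run from -0.38 for the other claudins to 0.21 for the adherens junction.

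The direction of these differences moved with transcript length over all genes. Among 12191 genes tested with a known transcript length, the median log2 fold change was -0.22 up to 1000 bases (1066 genes), -0.13 from 1000 to 2000 bases (2562 genes), -0.03 from 2000 to 4000 bases (4790 genes) and 0.10 above 4000 bases (3773 genes). The claudin transcripts are short, 1259 bases for Cldn3, 1335 for Cldn7 and 1902 for Cldn15, and those of Tjp1 and Cdh1 are long, at 7049 and 4430 bases. Other genes stood against the trend. Krt8 and Krt18 are short, at 1958 and 1437 bases, with fold changes above 0, and Ocln has 4052 bases with a fold change below 0. In the wider set, 23 of 29 genes above 4000 bases had a fold change above 0 (median 0.24), against 18 of 41 shorter genes (median -0.04). Over all genes above 4000 bases the quartiles were -0.04 and 0.24. When smooth effects of length and GC content were removed from each library, Cldn7 stood at a log2 fold change of -0.30 (adjusted p = 0.134), Cldn15 at -0.17 (0.376), Tjp1 at 0.21 (0.215) and Cdh1 at 0.06 (0.657). Vim, of 2193 bases, was at -1.15 (0.112), and Esrp2 at -1.21 (adjusted p = 0.0223). Dsp moved from 0.48 to 0.26 (adjusted p = 0.169), and the list medians became 0.08 for the adherens junction, 0.11 for the desmosome, 0.07 for tight junction scaffolds, -0.23 for the other claudins, -0.23 for the other keratins, 0.17 for the Epcam partners, 0.06 for the epithelial transcription and splicing factors and -0.04 for the transition genes. The Epcam partners and, by a smaller amount, the epithelial transcription and splicing factors thus moved away from 0. After the same correction Epcam, of 2040 bases, was at -0.01 and Ocln at -0.03. The ratios and family shares above set transcripts of different lengths side by side and were not corrected. The part of the length trend in them was not tested, nor was its cause.

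**Figure D5:**
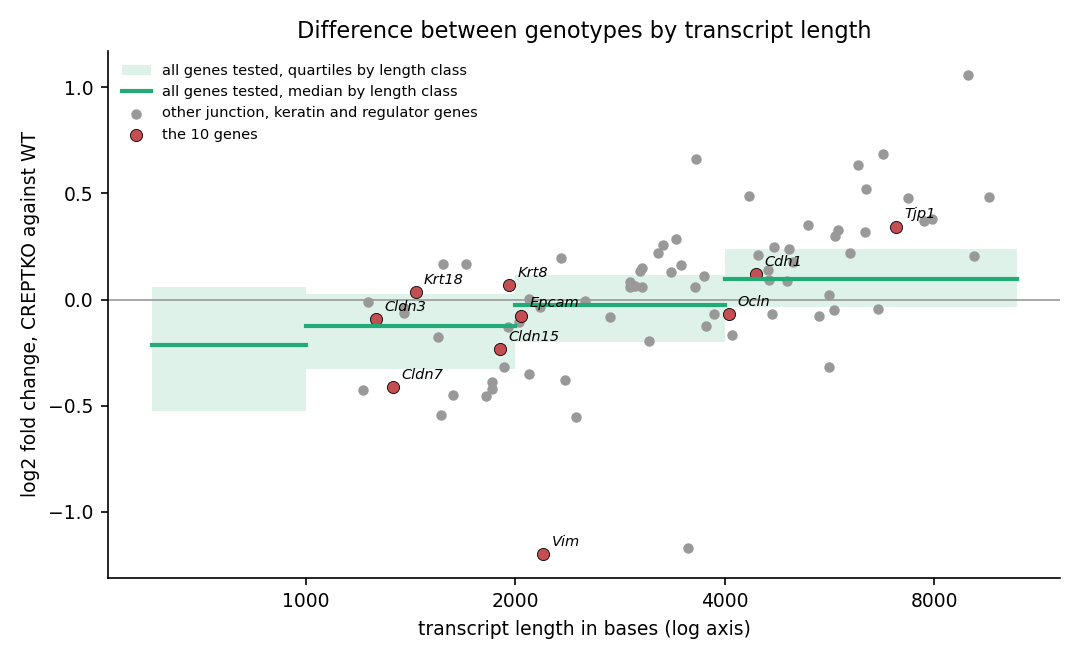
Log2 fold change, Lgr5-CREPTKO against Lgr5-WT, against transcript length on a log axis, for the 10 genes (red) and the other junction, keratin and regulator genes tested (grey). Green lines and bands give the median and quartiles of all genes tested in each length class, from -0.22 up to 1000 bases to 0.10 above 4000 bases. Cldn7, Vim and Ocln lie below the band of their class, Tjp1, Krt8 and Krt18 above it, and the other 4 genes within it.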

How the data were processed

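RNA of sorted Lgr5-GFPhigh cells from 2 Lgr5-WT and 2 Lgr5-CREPTKO mice was sequenced by BGISEQ. The authors deposited FPKM values, 1 column per mouse, for 18436 gene symbols, rounded to 2 decimals. By the study's methods for RNA-seq, written for crypts and whole intestines rather than sorted cells, reads were mapped to GRCm38.p6 reference transcripts with Bowtie2 and quantified with RSEM. The submitters' processing notes also name HISAT and mm10, without versions. FPKM is relative to each library's total. The study's own test was a count model. Counts were not analysed here.

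The 12621 genes whose mean over the mice reached 0.5 FPKM were put on the log2(FPKM + 0.5) scale and fitted by genotype in limma 3.58.1 (R 4.3.3, intensity trend), two-sided, and called at an adjusted p below 0.05. The smallest p of an exact two-sided permutation test with 2 mice per genotype is 0.333, so calls rest on the variance limma shares across genes. Mice were grouped by sample titles and column names, which match.

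The members and gene lists were chosen with earlier results of these data known. Named are the 10 genes, Rprd1b, Lgr5, the 3 most abundant genes of each other list, and every called gene of the junction, keratin and regulator lists. Genes named beyond that, Krt5, Krt10, Krt14, Krt15, Cdh2, Ptprc, Esrp1 and Wbscr25 among them, were chosen after their values were seen. Of the list genes, 6 were found under an older symbol and 9 were not analysed here. The enterocyte marker list is not reported here. Depth was estimated from small values: 65.2% to 74.8% of 224 to 267 values per library lay within 0.15 of a whole number of reads, where even spread gives 30%. Estimated read numbers are approximate. Coordinates, transcript lengths and promoters are from RefSeq and GENCODE M21 on GRCm38.p6. Of the 10 genes, Cdh1 had no promoter entry. Alternatives were the pseudocount, the filter, library scaling, the trend, the replicate block, small RNA genes and each mouse left out. The length and GC correction was chosen after seeing the data.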

Additional observations from a re-analysis of the deposited data

How the results depend on the processing

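Of the 10 genes, 0 were called in either direction under each of the 14 alternatives, 13 planned and 1 added after seeing the data. Without the filter, without the intensity trend or with a mouse left out, calls over all genes were lost or nearly so. Those alternatives could therefore not set the 10 genes apart from other genes. Cdh1, Cldn7, Cldn15, Tjp1 and Vim kept their direction under all of them. Their log2 fold changes ran from 0.06 to 0.20 for Cdh1, -0.47 to -0.30 for Cldn7, -0.30 to -0.16 for Cldn15, 0.21 to 0.42 for Tjp1 and -1.59 to -0.80 for Vim, with lowest adjusted p-values of 0.162, 0.0518, 0.166, 0.0694 and 0.0726. Genes near 0 turned. With libraries scaled to the same total, which moved the median of all genes from -0.01 to 0.06, Epcam was at 0.0022 and Ocln at 0.0078. With a mouse left out, Cldn3 ran from -0.19 to 0.0081, Krt8 from -0.089 to 0.22, Krt18 from -0.20 to 0.27 and Ocln from -0.15 to 0.0063. Krt8 and Krt18 were below 0 without Lgr5-WT mouse 2 (-0.089 and -0.20) or Lgr5-CREPTKO mouse 2 (-0.074 and -0.15).

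Over all genes, 52 were called higher and 337 lower. The counts were 0 and 0 without the filter (smallest adjusted p = 0.105; 1320 higher and 2250 lower at an unadjusted p below 0.05), 0 and 4 without the intensity trend, 85 and 241 at equal totals, 61 and 283 at equal upper quartiles, 109 and 487 without small RNA genes, 17 and 166 with the length and GC correction, and 0 and 0 with any mouse left out. In the wider set, 0 were called lower without the filter, without the trend and with any mouse left out. Besides Esrp2, Dsp and Patj were called higher at equal totals (2 higher), Patj alone at equal upper quartiles (1 higher), and Dsp, Patj and Amotl1 higher (3) and Crb3 lower (2 lower in all) without small RNA genes. Rprd1b stayed at -1.29 without the filter (adjusted p = 0.116) and without the trend (0.0623), and ran from -1.36 to -1.23 with a mouse left out. Esrp2 lost its call under the same 6 alternatives, where calls over all genes were lost or nearly so.

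Same-numbered mice are different animals, and the correlation of their deviations between genotypes was -0.03 across genes, so the numbers do not pair them. With the replicate block, 15 genes were called higher and 168 lower, 0 of the 10 were called, and Esrp2 stayed called (adjusted p = 0.0372). The cause of these changes was not tested. Vim rested on 43 to 185 estimated reads a mouse, the fewest of the 10 genes.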
